A study of Homo sapiens with 12 samples.

Results

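Early replicating regions detected in a single condition, MycER activation in cells with a non-targeting hairpin, were examined in U2OS-MycER cells. U2OS is a human osteosarcoma cell line with a rearranged karyotype, and MycER is Myc fused to the hormone-binding domain of the estrogen receptor, which is switched on by 4-hydroxytamoxifen (OHT). Overlapping or touching autosomal regions of 4 deposited lists were merged into 4886 regions. Of these, 227 held a region of the shNT + OHT list and of no other list (4.65% of the merged regions), and they are called OHT-only regions here. They were chosen by their presence in the called lists, so their width, reads and score in shNT + OHT are given as a description, and their absence elsewhere is a description and not a result.

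All cells carried MycER and a doxycycline-inducible hairpin, and all received doxycycline at 1 µg/mL. The control hairpin was non-targeting (shNT), and the other silenced CDK12 (shCDK12), a kinase that acts on elongating RNA polymerase II. MycER was activated in the OHT groups with 300 nM OHT over 40 h. Cells arrested in mitosis with nocodazole (100 ng/mL, 8 h) were released for 24 h into 25 µM EdU, a thymidine analogue, and 2 mM hydroxyurea. There were 12 samples, 3 in each of the groups shNT, shNT + OHT, shCDK12 and shCDK12 + OHT, but each deposited list pooled the replicates of its group. No replicate error could therefore be given and no test was made. The intervals below are exact binomial 95% intervals of shares and medians, which cover counting error over regions only.

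Replication starts at origins that fire in a set order through S phase, and open, transcribed chromatin tends to fire early. Hydroxyurea depletes nucleotides and stalls forks soon after they leave their origin, so that EdU stays close to the origins that fired first. Myc promotes entry into S phase and can bring origins to fire in places, or at times, where they would otherwise stay silent. Newly fired origins inside or beside active genes can bring forks and RNA polymerase into conflict.

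Across autosomes the shNT + OHT list held 4556 regions with 49994993 reads, against 3796 regions with 17261176 reads in shNT. The silenced lists held 4799 regions with 13220717 reads (shCDK12) and 4676 regions with 28573223 reads (shCDK12 + OHT). The mean density inside regions was 103 reads per kb in shNT + OHT and 39.1 in shNT, and in silenced cells it was 52.3 with OHT and 29.2 without. The list in which these regions were found was thus the one with the most reads per kb, and how far that contributed was not tested. For comparison, regions of a single list numbered 24 in shNT (0.491% of the merged regions), 113 in shCDK12 (2.31%) and 456 in shCDK12 + OHT (9.33%).

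The OHT-only regions were short, and most were weakly labelled, though the narrow ones described below had many reads per kb with few reads in all. They covered 5.67 Mb, which was 1.16% of the length of the shNT + OHT list, and held 194633 reads, or 0.389% of its reads, although they made up 4.98% of its regions. Each was a single region of that list. Their median width was 26 kb (interval 25.2 to 27.6), against 110 kb (105 to 115) for the 2932 merged regions present in all 4 lists. The latter is the width after merging over the lists. Within shNT + OHT alone, 2845 of these regions covered a median of 91.6 kb, and the other 87, described below, 82.8 kb. The median density was 34.8 reads per kb (34.1 to 35.6), against 66.4 (64.6 to 68.2) in the same list for regions present in all 4. All 227 scored below the median of their list, and 111 of them (48.9%) were among its lowest 10%. No shNT region scored under 145.5, and in no other list was the minimum as high, though whether scores of different lists share a scale is not known. A score under this value was found for 94 of the 227 (41.4%, interval 34.9 to 48.1), against 8.06% of all autosomal shNT + OHT regions. The highest score among them was 1126, while the median score of the list was 1278.

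OHT-only regions were split by width at 2 kb. The narrow ones, at most 2 kb wide, had 28 members (12.3%, interval 8.36 to 17.3), while 3.09% of all autosomal shNT + OHT regions were that narrow. Of these 28, 16 were a single window of 400 bp, the smallest unit of the lists. They held 81 to 154 reads each, with a median of 109, and their median density was 208 reads per kb (168 to 233). The highest density was 327.5 reads per kb, in a single window on chromosome 1 (169079201 to 169079600) with 131 reads. The next were windows on chromosome 5 (174541601 to 174542000) with 120 reads and on chromosome 2 (79632001 to 79632400) with 115 reads. The other 7 were single windows on chromosomes 1, 12, 7, 5, 5, 6 and 9 with 108, 103, 102, 95, 94, 93 and 93 reads. All 10 of the densest regions were therefore single windows, with 93 to 131 reads as their whole signal. An 11th, on chromosome 10 (135490801 to 135491200), tied with those on chromosomes 6 and 9.

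The broad ones, over 2 kb wide, had 199 members with a median width of 27.6 kb (26 to 29.6) and a median of 933 reads (882 to 975). Density varied little among them: from the 5th to the 95th percentile it went from 29.1 to 49.3 reads per kb. Among all autosomal regions of the list, 137 of the 199 (68.8%) lay in the lowest 20% of density. Only 12 regions were over 2 kb and under 10 kb wide, 187 were 10 kb or wider, and 6 were over 50 kb. Narrow windows with many reads per kb and broad, faint domains thus made up separate ends of the width range, as the plot of width against density shows.

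**Figure D1:**
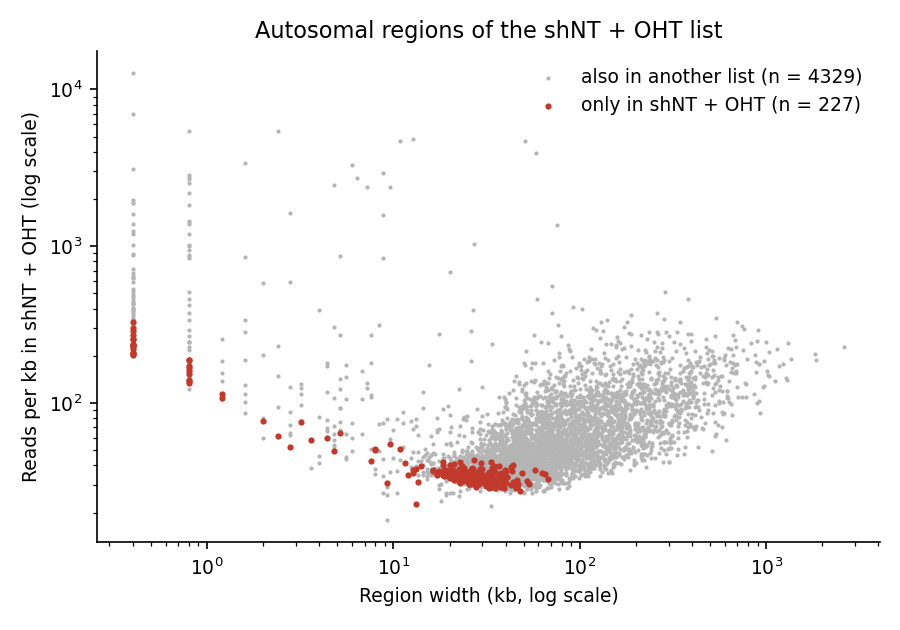
Each point is an autosomal region of the shNT + OHT list, with its width in kb on the x axis and its reads per kb on the y axis, both on log scales. The 227 OHT-only regions (red) lie along the lower edge of the cloud, with the 28 narrow ones at the left and most of the 199 broad ones near 34 reads per kb.

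The widest OHT-only region spanned 67.6 kb on chromosome 2 (239832001 to 239899600) and held 2221 reads, or 32.9 per kb. It lay 597.6 kb from the nearest region of another list, with a further OHT-only region as its next neighbour on the right. The region on chromosome 17 at 25860801 to 25926000 (65.2 kb) held the most reads of all, 2285, and lay 68 kb from its nearest neighbour in another list. That on chromosome 11 at 1440001 to 1502400 (62.4 kb, 2226 reads) was set in a densely early replicating stretch, with 62.3% of its flanking bases inside shNT regions. In contrast, the region on chromosome 16 at 5879201 to 5936400 (57.2 kb, 2131 reads) stood 743.6 kb from any region of another list. The other 2 over 50 kb were on chromosome 17 (9995201 to 10048800, 1635 reads) and chromosome 11 (133798801 to 133850800, 1654 reads). The widest regions were hence not confined to 1 setting: some filled spaces in crowded stretches and others stood alone.

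The remaining 4 of the 10 widest were 3 regions on chromosome 1 and 1 on chromosome 17. On chromosome 1 they were at 78714801 to 78763600 (48.8 kb, 1756 reads), 64321201 to 64368000 (46.8 kb, 1433 reads) and 66727201 to 66773200 (46 kb, 1484 reads). The region on chromosome 17 at 55590401 to 55638400 (48 kb) had 1326 reads, 27.6 per kb, the lowest density of the 10. Its nearest region of another list, 83.2 kb away, belonged to shCDK12 + OHT, while shNT had none within 254.8 kb.

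The highest-scoring OHT-only regions were all short. They were on chromosome 7 (56438401 to 56441600, 3.2 kb, 243 reads), chromosome 8 (161201 to 165600, 4.4 kb, 264 reads) and chromosome 12 (61302001 to 61302800, 0.8 kb, 150 reads). Below them came chromosome 2 (231868401 to 231870400, 2 kb, 154 reads) and chromosome 22 (20436001 to 20438400, 2.4 kb, 148 reads). Their scores ran from 1019 to 1126, so the top of this ranking held short regions and none of the wide domains. The 10 densest windows all scored exactly 1000, which was also the median score of the 28 narrow members. How the caller sets this value is not known, and whether scores near it are graded by signal was not tested.

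Regions with OHT that shNT lacked were then divided by their presence in the silenced lists, to ask how OHT-only regions differ from those also found without CDK12. Of 842 such merged regions, 227 were in no silenced list (26.96%, interval 24.0 to 30.1), 47 were also in shCDK12, 183 also in shCDK12 + OHT and 385 in both. The share that was OHT-only was lower in each wider class. It was 59.6% (44.3 to 73.6) of 47 regions up to 2 kb wide, 38.7% (21.9 to 57.8) of 31 regions of 2 to 10 kb and 31.6% (21.6 to 43.1) of 79 regions of 10 to 20 kb. It was 29.3% (25.3 to 33.6) of 474 regions of 20 to 40 kb, 13.4% (8.40 to 19.97) of 149 regions of 40 to 60 kb and 4.84% (1.01 to 13.5) of 62 wider ones. Neighbouring intervals overlapped up to 40 kb, whereas those of the 20 to 40 kb and 40 to 60 kb classes did not. Widths are those of the shNT + OHT list, which also supplied the rule, and the trend is given as a description. Any overlap with a silenced list takes a region out, and a wider region has more bases where this can happen. The rule itself thus favours narrow OHT-only regions, and its part in the trend was not tested.

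**Figure D2:**
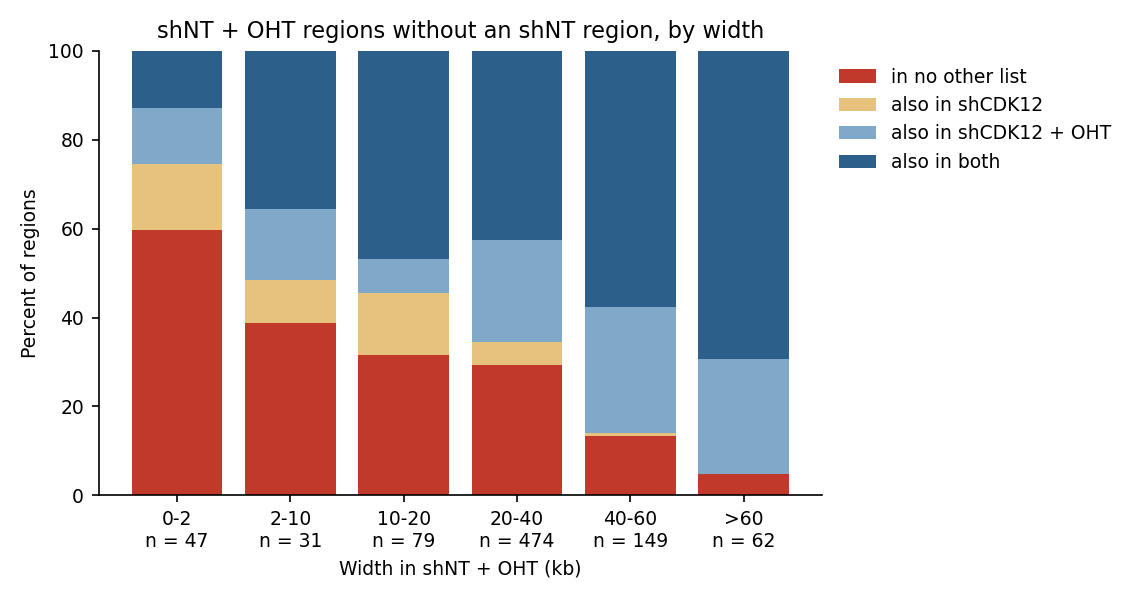
Bars show, for each width class of the shNT + OHT regions that had no shNT region, the percent found in no other list (red), also in shCDK12 (yellow), also in shCDK12 + OHT (light blue) and also in both (dark blue), with the number of regions under each bar. The red share goes from 59.6% in the narrowest class to 4.84% in the widest.

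Density in shNT + OHT, unlike width, scarcely separated these groups. The median was 34.8 reads per kb for OHT-only regions, 34.9 (33.4 to 36.4) for those also in shCDK12, 33.5 (33.0 to 34.3) for those also in shCDK12 + OHT and 34.3 (33.8 to 35.0) for those in both. Within the 20 to 40 kb class, the 139 OHT-only regions had a median of 33.5 reads per kb (32.8 to 34.1). The medians were 33.3 (32.5 to 34.3) for 25 regions also in shCDK12, 33.6 (32.8 to 34.7) for 108 also in shCDK12 + OHT and 33.9 (33.1 to 34.6) for 202 in both. At like width, the intervals of all 4 groups overlapped. An OHT-only region of this class was thus about as strongly labelled in shNT + OHT as a region that the silenced lists also held.

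The reads that the other lists held at OHT-only regions were not used here, since the lists give reads only inside their own regions. To set the density of these regions beside the limits of the other lists, it was scaled by the median density ratio of 1915 regions that were single and at least 10 kb wide in every list. This ratio to shNT + OHT was 0.363 for shNT (0.360 to 0.366), 0.309 for shCDK12 (0.305 to 0.311) and 0.617 for shCDK12 + OHT (0.607 to 0.625). Scaled in this way, the 187 OHT-only regions of 10 kb or more had a median of 12.3 reads per kb on the shNT scale, against a 5th percentile of 13.1 among called shNT regions of that width. The scaled value was under the 5th percentile for 135 of 187 (72.2%) in shNT, 117 (62.6%) in shCDK12 and 115 (61.5%) in shCDK12 + OHT. Of all shNT + OHT regions of that width, 20.8%, 17% and 16.7% fell under the same limits. Each scaled value is the density in shNT + OHT multiplied by 1 constant per list. The 3 limits are therefore cuts on the same value, and passing them is not separate evidence from 3 lists. For 115 of the 187 the scaled value was under all 3 limits, and for 52 (27.8%) it was under none. Few lay under the very lowest density called, 1 in shNT and 2 in each silenced list. A scaled density under the 5th percentile was also common among shNT + OHT regions of that width that shNT lacked but a silenced list held. On the shCDK12 + OHT scale, 110 of 172 regions of both OHT lists alone (64.0%, 56.3 to 71.1) and 205 of 368 regions of all lists but shNT (55.7%, 50.5 to 60.9) were under the limit, although shCDK12 + OHT had called them. The median densities that shCDK12 + OHT itself held in these groups, at any width, were 24.3 and 28.1 reads per kb. Both were above the limit of 21.5, so the scaled value can differ from the density a list held. The interval for OHT-only regions was 54.1 to 68.5%, so a low scaled density was shared with these groups. It did not set OHT-only regions apart from them. On the shCDK12 + OHT scale it was less common in regions of both shNT lists alone, at 33 of 124 (26.6%, 19.1 to 35.3). In regions of every list it was found for 75 of 2791 (2.69%, 2.12 to 3.36). The part that read depth played in the absence of OHT-only regions from the other lists was not tested.

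OHT-only regions stood farther from their neighbours than most merged regions. The median distance to the nearest region of another list was 94 kb (71.6 to 123), with 27 regions within 10 kb, 115 (50.7%, 44.0 to 57.3) within 100 kb, 193 within 500 kb and 18 (7.93%) beyond 1 Mb. By list, the median distance was 148 kb to shNT, 144 kb to shCDK12 and 116 kb to shCDK12 + OHT. Counting regions of any list, 119 (52.4%, 45.7 to 59.1) lay within 100 kb of another merged region, against 71.7% of all merged regions. The same share was 66.2% (61.7 to 70.6) for the 456 regions of shCDK12 + OHT alone, 64.5% (57.1 to 71.4) for the 183 regions of both OHT lists alone and 40.3% (31.6 to 49.5) for the 124 regions of both shNT lists alone. The interval for OHT-only regions was below that of shCDK12 + OHT alone and overlapped those of the other groups. Narrow members had a median distance to another list of 348 kb (70.4 to 713), and broad members of 84.8 kb (65.2 to 112), with overlapping intervals.

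**Figure D3:**
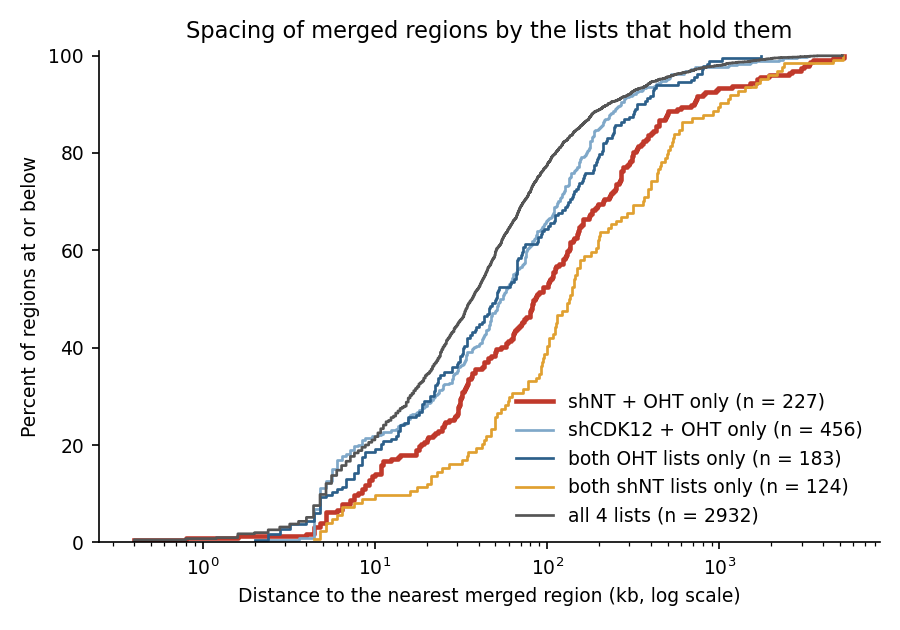
Cumulative percent of merged regions (y axis) by distance in kb to the nearest other merged region (x axis, log scale), for regions held by shNT + OHT only (red), shCDK12 + OHT only, both OHT lists only, both shNT lists only and all 4 lists. At 100 kb the red curve reaches 52.4%, between the curves of both shNT lists (40.3%) and of shCDK12 + OHT only (66.2%).

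The most isolated OHT-only regions were on chromosome 6. There, 3 OHT-only regions followed each other with no other merged region between them and were the last 3 merged regions of the chromosome. The first (167086001 to 167119200, 33.2 kb) held 1119 reads. The next was a single window (170489201 to 170489600) with 93 reads, and the last (170915601 to 170916800, 1.2 kb) held 130 reads. They lay 6808, 10212 and 10638 kb from the nearest region of any other list, so that this chromosome end carried regions in shNT + OHT and in no other condition. Isolated regions also occurred inside chromosomes. The region on chromosome 1 at 193070801 to 193090000 (19.2 kb, 701 reads) was 5306 kb, and that on chromosome 4 at 21442401 to 21470000 (27.6 kb, 990 reads) 4589 kb, from any region of another list.

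At the other extreme were regions that nearly met the rule's limit. The nearest lay 0.4 kb, or a single window, from an shNT region on chromosome 17 (15242401 to 15265200, 730 reads). The next were on chromosome 21 (36436401 to 36472800, 1078 reads), 0.8 kb away, and chromosome 3 (149197601 to 149230800, 965 reads), 1.6 kb away, both again from shNT regions. On chromosome 5 (1254001 to 1286400, 957 reads) the nearest was an shCDK12 + OHT region at 4 kb, and on chromosome 7 (72435201 to 72448800, 424 reads) an shNT region at 4.4 kb. A region on chromosome 9 (109970801 to 110016800, 1341 reads) tied with it, 4.4 kb from an shCDK12 + OHT region. Just outside the rule was a region on chromosome 7 (150646401 to 150671600, 25.2 kb, 805 reads), of which shCDK12 + OHT overlapped 1.59%. On chromosome 1 (208154401 to 208194800, 40.4 kb, 1378 reads) shNT overlapped 6.93%. The 5 regions with the smallest overlap as a percent of their width had 26.6 to 60 reads per kb, the highest in a region only 2 kb wide. The 5 just inside, ranked by distance in bases, had 29.1 to 32.0, so the range outside enclosed the range inside.

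Lying between shNT regions is fixed by the rule, and the length of these gaps was compared with that around other regions shNT lacked. The shNT gap that enclosed them had a median length of 1146 kb (844 to 1658), and 129 of 227 (56.8%, 50.1 to 63.4) were in gaps over 1 Mb, against 51.7% of all 1628 merged regions without shNT, while 22 were in gaps under 200 kb. The 129 include 10 that lay beyond the first or last shNT region of a chromosome, where no gap length is defined. In all they occupied 201 stretches without a called shNT region, 23 of which held at least 2 of them. In 100 of these 201 stretches (49.8%, 42.6 to 56.9) at least 1 silenced list had a region that lay wholly inside and met no shNT region. Stretches without an OHT-only region held one in 752 of 3604 cases (20.9%), but were far shorter, with a median of 110 kb against 1078 kb. Among stretches over 1 Mb the shares were 67.3% (57.4 to 76.2) of 104 with and 56.5% (51.8 to 61.1) of 462 without an OHT-only region, and the intervals overlapped.

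Flanks were measured as the share of bases within 1 Mb on each side that lay inside regions of a list. OHT-only regions had a median of 10.04% of flanking bases in shNT regions (8.38 to 13.2), against 20.5% (19.7 to 21.3) for all merged regions, 27.1% (25.8 to 28.4) for regions of all 4 lists and 16.8% (12.7 to 19.7) for regions of both OHT lists alone. For regions of shCDK12 + OHT alone the value was 12.3% (10.3 to 14.3), and for regions of both shNT lists alone 8.31% (5.78 to 10.3). No flanking base was in an shNT region for 27 of the 227. The median around OHT-only regions was thus below that of all merged regions, and its interval overlapped that around regions of shCDK12 + OHT alone.

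Cover of the flanks was also compared between lists. Flanking cover was higher in shNT + OHT than in shNT for 170 of 227 (74.9%) and lower for 33, and the median difference was 1.58 percentage points (1.12 to 1.90). Of all merged regions, 77% had more cover in shNT + OHT, so the share was near the background. Cover by shCDK12 + OHT exceeded that by shNT + OHT for 119 (52.4%, 45.7 to 59.1) and was lower for 89, with a median difference of 0.08 percentage points (0 to 1.04). Here the background was higher, since 71.1% of all merged regions had more cover by shCDK12 + OHT, with a median difference of 2.82 points (2.56 to 3.04). Around regions of shCDK12 + OHT alone the difference was 4.72 points (3.94 to 5.40), and around those of both OHT lists alone 2.00 points (0.88 to 2.86). It was about as small as around OHT-only regions, or below 0, in some other groups without an shCDK12 + OHT region. These were regions of both shNT lists alone, at -0.51 points (-1.42 to 0), and regions of both shNT lists and shCDK12, at -0.16 points (-1.94 to 0.14). Regions of shNT + OHT and shCDK12 alone were at 0.18 points (-0.02 to 2.70). It was larger for regions of shNT alone, at 0.39 points (0 to 2.84), and of shCDK12 alone, at 1.54 points (0.46 to 2.28). For regions of shNT and shCDK12 alone it was 3.04 points (-1.08 to 4.24). The intervals of these larger values overlapped that of OHT-only regions. A small difference was therefore not particular to OHT-only regions. Flanks exclude the region itself, but flanks of close neighbours overlap and are not independent.

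**Figure D4:**
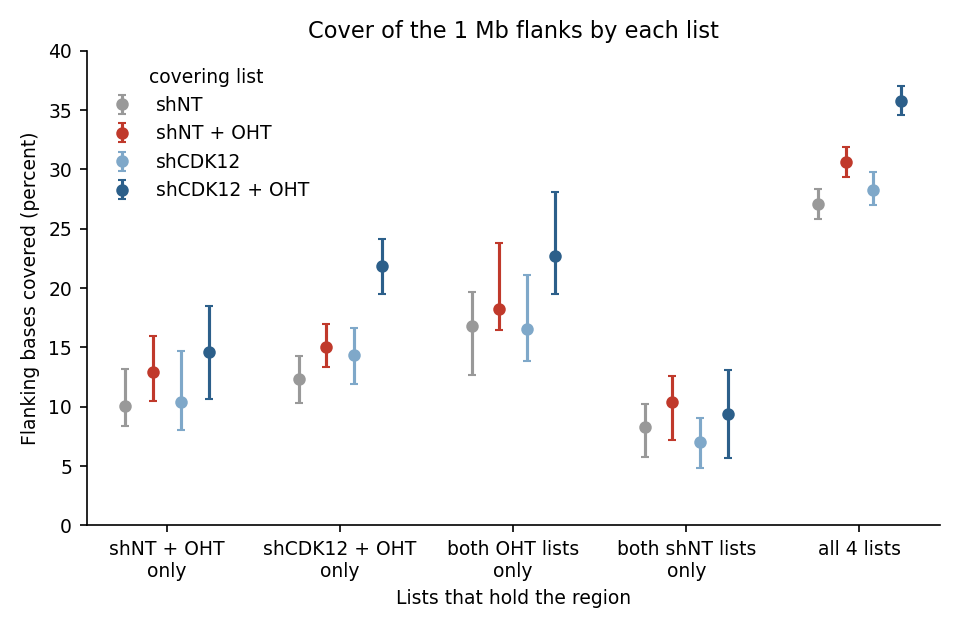
Points are the median percent of bases within 1 Mb on each side of a region that each of the 4 lists covers (y axis), for 5 groups of merged regions (x axis), and bars are exact binomial 95% intervals of the median. Cover around OHT-only regions is 10.04% by shNT and 14.6% by shCDK12 + OHT, against 27.1% and 35.8% around regions of all 4 lists.

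Regions of all 4 lists took 230 of 447 neighbouring sides of OHT-only regions (51.5%), against 60% over all merged regions. Of the 227, 56 (24.7%, 19.2 to 30.8) had a region of all 4 lists on both sides, 118 on 1 side and 53 on neither, while 38.1% of all merged regions had it on both sides. A region of shCDK12 + OHT alone was next to 36 (15.9%, 11.4 to 21.3), near the 17.2% of all merged regions. A region of both OHT lists alone was next to 28 (12.3%, 8.36 to 17.3) and a region of both shNT lists alone next to 22 (9.69%, 6.17 to 14.3), against 7.37% and 4.87% of all merged regions. Another OHT-only region was the next neighbour of 40 (17.6%, 12.9 to 23.2), against 8.84% of all merged regions. These last 3 intervals lay above the share over all merged regions. These formed 19 runs of consecutive members, none longer than 3.

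For 87 regions of all 4 lists, an OHT-only region lay within 100 kb and had them as its nearest region of this kind. Their median was 21.3 reads per kb in shNT and 58.6 in shNT + OHT, with a median log2 ratio of 1.44 (1.40 to 1.52). In the other 2845 regions of all 4 lists the densities were 24.4 and 66.5, with a ratio of 1.45 (1.45 to 1.46). The intervals overlapped, so no separate behaviour of neighbouring domains could be seen in read density. Reads are not scaled to library size, so the ratios include any difference in depth. In silenced cells the corresponding ratios were 1.02 (0.96 to 1.09) and 0.98 (0.97 to 0.99). The median length covered in the neighbours was 72 kb in shNT and 82.8 kb in shNT + OHT, with a median log2 ratio of 0.05 (0.01 to 0.11), against 0.01 (0.00 to 0.01) elsewhere. For length, the intervals overlapped only at their edges.

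OHT-only regions occurred on all 22 autosomes. Chromosome 2 held the most, with 24, followed by chromosome 1 with 21 and chromosome 7 with 20, and chromosome 18 held the fewest, with 2. As a share of the merged regions of a chromosome, they ranged from 1.56% on chromosome 15 (3 of 192, interval 0.323 to 4.50) to 11.3% on chromosome 21 (7 of 62, 4.66 to 21.9). These were the only chromosomes whose interval did not include the overall 4.65%, and both missed it narrowly. Per 100 Mb of span the number went from 2.57 on chromosome 18 to 18.1 on chromosome 21. Chromosome 19, which is rich in genes, had 7 of 122 (5.74%, 2.34 to 11.5), and chromosome 13, which is poor in genes, had 8 of 97 (8.25%, 3.63 to 15.6).

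**Figure D5:**
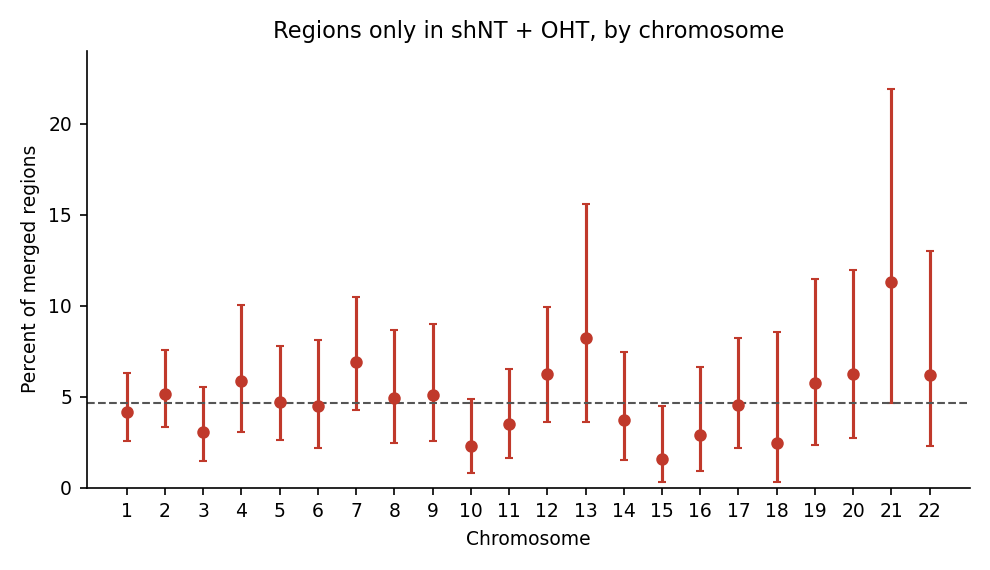
Points are the percent of merged regions on each autosome (x axis) that were found only in shNT + OHT (y axis), with exact binomial 95% intervals, and the dashed line is the overall 4.65%. The values run from 1.56% on chromosome 15 to 11.3% on chromosome 21, and most intervals include the line.

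Clusters were small. With members joined when no more than 500 kb apart, 50 of the 227 (22.0%, 16.8 to 28.0) fell into 24 clusters and the others stood alone. The share with a region of the same kind so near was 39.3% (34.7 to 43.9) for regions of shCDK12 + OHT alone and 1.77% (0.215 to 6.25) for those of shCDK12 alone. It was 14.8% (9.95 to 20.7) for those of both OHT lists alone and 17.7% (11.5 to 25.6) for those of both shNT lists alone, with intervals that overlapped that of OHT-only regions. These groups differ in number, which the share depends on. The largest clusters had 3 members. They were singled out after their values were seen. On chromosome 21 this cluster comprised regions at 36144801 to 36162000 (17.2 kb, 601 reads), 36436401 to 36472800 (36.4 kb, 1078 reads) and 36808001 to 36817600 (9.6 kb, 527 reads). On chromosome 14 it comprised regions at 34666801 to 34692400 (25.6 kb, 800 reads), 34999201 to 35010000 (10.8 kb, 553 reads) and 35031601 to 35039600 (8 kb, 401 reads). Besides the run on chromosome 6, a run of 3 consecutive members lay on chromosome 1. It comprised the region at 78714801 already given, a region at 79147201 to 79184800 (37.6 kb, 1347 reads) and a single window at 81227601 to 81228000 (82 reads). Of the 227, 14 (6.17%, 3.41 to 10.1) lay within 1 Mb of the end of the stretch the lists span on a chromosome. This compares with 3.4% of all merged regions, a value at the lower edge of the interval. The stretch ends at the outermost called region, which can be an OHT-only region itself and far from the chromosome end. On chromosome 3, the OHT-only region starting at 4766801 was such an outermost region.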

How the data were processed

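EdU-labelled DNA of U2OS-MycER cells was sequenced in 12 samples. The authors deposited 1 list of broad regions per condition, called on merged replicates. The submitters' processing notes name BWA 0.6.2, SAMtools, SICER, hg19 and mm10, with no role or order. Caller settings, a control library and removal of duplicates are not given in the sources used here. Each region carries a deposited count of reads, whole and without correction for sequencing depth. Its deposited score is the authors' own value, and whether it is on a common scale between lists is not given. It was used to rank regions, to choose the 5 highest-scoring, for the share under the highest minimum of the lists, and in 2 alternatives. Full library depths were not used. Deposited ends are the last base counted from 0, and positions are printed counted from 1 on hg19. Limits lie on a 400 bp grid, and no gap inside a list was under 4400 bp. On 13 of 22 autosomes the lists pass the hg38 end by more than 1 window, so the hg38 genome and annotation at hand were not used, and genes and sequences of the regions were not analysed here.

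Autosomal regions of all lists were merged when they overlapped or touched. Distances are bases between region edges, and flanks were limited to the span the lists cover on a chromosome. Shares have exact Clopper-Pearson intervals, and medians exact order-statistic intervals. Regions are not replicates, and groups of regions were set side by side with these intervals, with no test. The members and rules were chosen with earlier results of these data known. The regions named are the 10 widest, the 10 with the most reads per kb, the 5 highest-scoring, the 5 farthest from and the 5 nearest to another list, and the longest runs; ties were broken by position. Alternatives changed merging, joining, score, list size, width, chromosomes, unit, margin and flank width. The functions were tested on simulated data. Intervals used scipy 1.17.1, tables pandas 2.3.3 and numpy 2.4.6, and figures matplotlib 3.10.9, under Python 3.11.15.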

Additional observations from a re-analysis of the deposited data

Results flagged for a closer look

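Chromosome X was left out of the autosomal comparisons but carried signal of the same kind: 8 of its 97 merged regions were found only in shNT + OHT, with a median width of 29.6 kb. None was found only in shNT, 7 only in shCDK12 and 5 only in shCDK12 + OHT.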

How the results depend on the processing

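Over 72 recomputed values, 58 stayed within the interval of the value reported, or within 1.5 times a count or length, and 14 did not. Merging only overlapping regions, or taking regions of the list in place of merged ones, kept the same 227 regions. Every value under these settings was therefore unchanged, and those among the 58 add no information. With regions joined up to 100 kb, 120 OHT-only regions over 2.98 Mb were left, at a median distance of 269 kb from another list, with 9.17% within 100 kb and 6.80% of flanking bases in shNT regions; joining across 100 kb itself removes close neighbours. With the 3796 top-scoring regions of every list, 132 were found, and 63 of the 227 were among them, with a median width of 32.2 kb, 38.5 reads per kb and a median distance of 157 kb. With the common minimum score, 163 were found, including 133 of the 227, with 36.3 reads per kb, a median distance of 144 kb and 42.3% within 100 kb. With regions of 10 kb or more, the median width was 28 kb and the density 33.8 reads per kb. For the other departures the cause was not tested. Limiting members to those over 2 kb, chosen after seeing the data, moved no value out of its interval. No paired analysis was possible because each list pools the replicates of its condition, and leaving out replicates could not be run for the same reason. How often a region would be found again in a repeat of its condition could not be estimated from 1 pooled list.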
